A study of Mus musculus with 37 samples.

Results

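MicroRNA levels in total blood were compared between male C57BL/6 mice of 13.5 months and of 12 months. The 21 libraries of these ages, 12 at 13.5 months and 9 at 12 months, were taken out of the 37 blood libraries of the series by the age in their labels, and the other libraries were from 15 months (5) and 16.5 months (11). The study asked which circulating microRNAs change while mice age over a span in which their spatial memory declines. The mice of this group were bled from the retro-orbital sinus at intervals of 6 weeks by the labels, and by the study's methods for the first time at 12 months, before any behavioural experiment. The 13.5-month blood was drawn from the other eye after water maze training and a day after the probe test. A figure legend of the study can also be read as placing the 12-month draw after the first habituation to the maze. Either way, age, training and the earlier blood draw cannot be told apart in these libraries. To control for effects of training, the study also bled aging mice that were not trained, and they are not among the 37 libraries. No allele or agent was given to either group, and the labels do not say which libraries came from the same mouse or when a library was sequenced. The study's legends give fewer mice per group than the 12 libraries of 13.5 months, and whether some of these share a mouse was not tested. The p-values below therefore measure the spread between these libraries only.

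MicroRNAs are short RNAs cut from hairpin precursors, and either arm of a hairpin, 5p or 3p, can be loaded into an Argonaute protein. The loaded strand finds target messenger RNAs mainly through its seed, the bases just after its first base, so microRNAs with one seed form a family with overlapping targets. Blood carries microRNAs of red cells and reticulocytes such as miR-451a, miR-144 and miR-486, of myeloid cells such as miR-223, and of lymphocytes such as miR-150 and miR-181. In such bulk samples, fewer cells of a type and less RNA per cell cannot be told apart.

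The mature sequences of microRNAs on which the results below turn are printed in the 5′ to 3′ direction, from RefSeq on GRCm38.p6, with the seed (bases 2 to 8) in capitals. First come members of the miR-30 family, which share a seed and were lower at 13.5 months.
miR-30a-5p: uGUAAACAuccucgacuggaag
miR-30c-5p: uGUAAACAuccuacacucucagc
miR-30e-5p: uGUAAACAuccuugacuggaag

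Next are members of the let-7 family that were higher. The first 3 share a seed, and that of let-7j is not identical to theirs.
let-7a-5p: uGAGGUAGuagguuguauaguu
let-7c-5p: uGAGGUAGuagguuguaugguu
let-7i-5p: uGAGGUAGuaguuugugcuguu
let-7j: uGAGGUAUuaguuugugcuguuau

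The following pair shares a seed and was higher.
miR-25-3p: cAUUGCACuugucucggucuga
miR-92a-3p: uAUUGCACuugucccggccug

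These 3 also share a seed, but the first 2 were higher and the last was lower.
miR-181a-5p: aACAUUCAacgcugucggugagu
miR-181b-5p: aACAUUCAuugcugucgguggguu
miR-181c-5p: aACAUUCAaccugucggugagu

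Among microRNAs of known sequence that passed the main read filter described below, the last 4 share a seed with no other. They were lower at 13.5 months. The first pair comes from one erythroid gene cluster.
miR-144-5p: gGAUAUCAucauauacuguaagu
miR-451a: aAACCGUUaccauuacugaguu
miR-425-5p: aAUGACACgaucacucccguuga
miR-19b-3p: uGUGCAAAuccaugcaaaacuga

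The count table held 1915 mature microRNAs, and 87 of them passed a filter of over 100 reads in 50% or more of all libraries. A library held between 2619533 and 15462085 counts, but between 140292 and 993255 once miR-486a-5p and its copy miR-486b-5p, whose counts are identical, were set aside. Levels are given as CPM, counts relative to the library size, scaled by the TMM factors of edgeR. Depth did not separate the ages (difference in mean log2 total count 0.38, two-sided exact permutation p = 0.24, adjusted over 5 library values p = 0.59). One library stood apart, replicate 1 of 13.5 months. Its root mean square deviation from its age's means was 1.16 on the log2 scale, against 0.28 to 0.95 in the other 20, and its TMM factor was 0.309, with miR-486a-5p at 1554879 CPM. Results are given without it below.

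In all, 38 of the 87 microRNAs (43.7%) passed an adjusted p of 0.05 in edgeR's quasi-likelihood test, of which 18 (20.7%) were higher at 13.5 months and 20 (23.0%) were lower. The higher ones had a median log2 fold change of 0.58 and the lower ones of -0.73, against 0.11 over all 87. The biological coefficient of variation over these microRNAs was 0.405. Fold changes under -1 were found for 6 of the lower ones, and those above 1 belonged to miR-92a-3p and miR-1198-5p. In 2 of the 87 (2.3%) the libraries of the ages did not overlap at all, and both were lower.

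**Figure D1:**
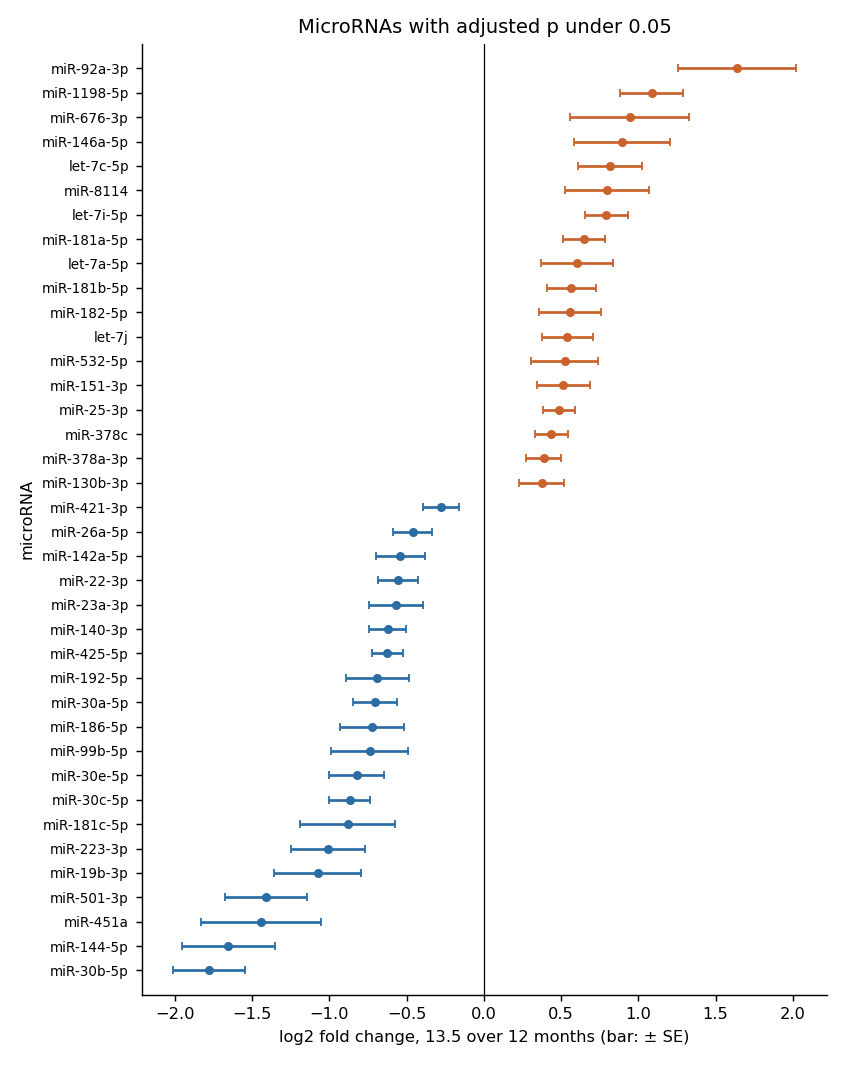
Log2 fold change of 13.5 over 12 months (x axis) for the 38 microRNAs with an adjusted p under 0.05 in edgeR's quasi-likelihood test, with bars of ± 1 SE. The values run from -1.78 for miR-30b-5p to 1.64 for miR-92a-3p, with 20 microRNAs to the left of 0 and 18 to the right.

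Without replicate 1 of 13.5 months, 30 of the 38 kept their call when the TMM reference library was chosen anew, and 34 when it was held. The 8 that lost it in the first case were all among the lower ones, and each kept it with the reference held. They were miR-22-3p (log2 fold change -0.33 without that library, adjusted p = 0.066), miR-26a-5p (-0.27, adjusted p = 0.085), miR-186-5p (-0.47, adjusted p = 0.071), miR-142a-5p (-0.29, adjusted p = 0.14), miR-192-5p (-0.43, adjusted p = 0.11), miR-23a-3p (-0.37, adjusted p = 0.10), miR-181c-5p (-0.63, adjusted p = 0.082) and miR-421-3p (-0.10, adjusted p = 0.51). The 4 lost with the reference held were higher ones, let-7a-5p (0.43, adjusted p = 0.098), miR-130b-3p (0.31, adjusted p = 0.079), miR-676-3p (0.84, adjusted p = 0.083) and miR-8114 (0.57, adjusted p = 0.060). Of the other leading ones with the reference chosen anew, miR-30c-5p was at -0.68, miR-30a-5p at -0.48, miR-30e-5p at -0.56, miR-425-5p at -0.41, miR-140-3p at -0.40, miR-144-5p at -1.45, miR-501-3p at -1.38, miR-223-3p at -0.77 and miR-19b-3p at -0.83. On the higher side, let-7i-5p was at 1.03, let-7c-5p at 0.85, let-7j at 0.77, miR-1198-5p at 1.12, miR-181a-5p at 0.84, miR-181b-5p at 0.68, miR-25-3p at 0.67, miR-378c at 0.64, miR-378a-3p at 0.61 and miR-146a-5p at 1.18.

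The miR-30 family, broadly expressed microRNAs of one seed, was lower at 13.5 months in 4 of its 5 tested 5p members (23.0% of all 87 were lower), with a median log2 fold change of -0.82. miR-30b-5p had the smallest p of all microRNAs. It lay between 66.6 and 211 CPM (median 108) at 12 months and between 10.04 and 60.7 CPM (median 31.8) at 13.5 months, so that all 12 older libraries were below all 9 younger ones. The mean fell from 121 ± 47.2 CPM (SD, n = 9) to 35.0 ± 16.3 CPM (n = 12), a log2 fold change of -1.78 ± 0.23 (SE, adjusted p = 4.1e-07). Without replicate 1 of 13.5 months it was -1.58, and it kept its call in all alternatives tried.

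miR-30c-5p is cut from precursors at chr1:23291714-23291736, in an exon of the long noncoding RNA Gm27028, and at chr4:120769584-120769606, in an intron of Nfyc. Its libraries spanned 603 to 1301 CPM (median 946) at 12 months and 305 to 686 CPM (median 542) at 13.5 months. Every older library was below the younger median, and 8 of the 12 were below all younger libraries (log2 fold change -0.87 ± 0.13, adjusted p = 6.5e-06). miR-30a-5p (chr1:23272274-23272295, outside other genes) spanned 521 to 1130 CPM (median 851) and then 320 to 801 CPM (median 456). Here 7 older libraries were below all younger ones (-0.71 ± 0.14, adjusted p = 0.00015). For miR-30e-5p (chr4:120772660-120772681, also in an intron of Nfyc) the range was 206 to 338 CPM (median 295) at 12 months and 53.9 to 289 CPM (median 138) at 13.5 months. The groups overlapped, with 9 older libraries below all younger ones (-0.82 ± 0.18, adjusted p = 0.00038). miR-30d-5p, which has the same family name, did not pass, at 1305 ± 173 and 1184 ± 258 CPM (-0.14 ± 0.11, adjusted p = 0.32).

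**Figure D2:**
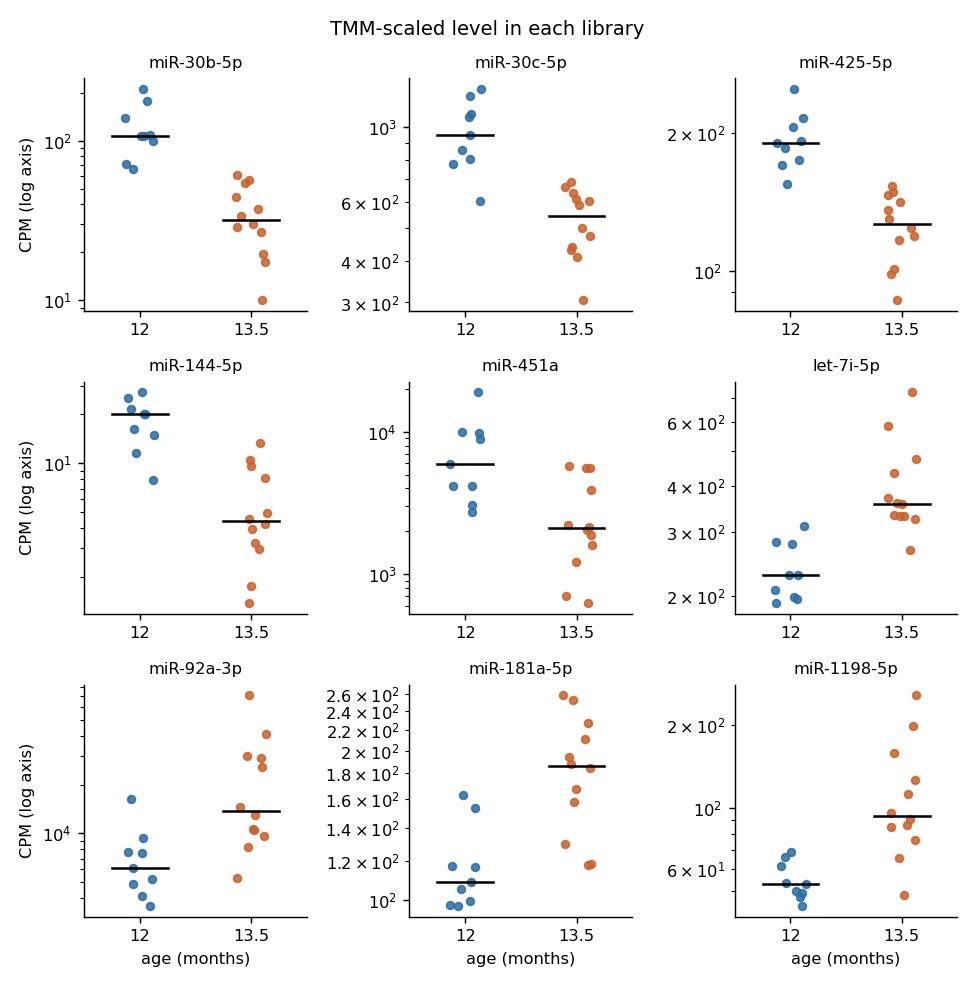
TMM-scaled level in each library (y axis, CPM, log scale, different for each panel) at 12 and 13.5 months (x axis) for 9 microRNAs, with points for libraries and a line at the median. In miR-30b-5p and miR-425-5p no older library reaches the lowest younger one, while in the other 7 the ages overlap.

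miR-425-5p and miR-191-5p come from one transcript, the long noncoding RNA 4833445I07Rik on chromosome 9, and are both exonic in it. miR-425-5p (chr9:108568789-108568811) lay between 155 and 250 CPM (median 190) at 12 months and between 86.6 and 154 CPM (median 127) at 13.5 months. The ages did not overlap, with the highest older library just under the lowest younger one (log2 fold change -0.63 ± 0.10, adjusted p = 8.4e-06). miR-191-5p (chr9:108568325-108568347) was at 8023 ± 1753 CPM and 7135 ± 2723 CPM and did not pass (-0.17 ± 0.17, adjusted p = 0.42). Whether these 2 changes differ from each other was not tested.

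The cluster of miR-144 and miR-451a on chromosome 11 is transcribed in erythroid cells, and miR-451a is matured by Argonaute 2 without Dicer. Both tested members were lower at 13.5 months (23.0% of all 87 were lower). miR-144-5p (chr11:78073010-78073032) ranged from 7.93 to 27.4 CPM (median 19.97) at 12 months and from 1.39 to 13.4 CPM (median 4.40) at 13.5 months. All older libraries were below the younger median and 8 were below all younger libraries (log2 fold change -1.65 ± 0.30, adjusted p = 5.8e-05). miR-451a (chr11:78073186-78073207) ranged from 2727 to 19052 CPM (median 5918) and then from 624 to 5760 CPM (median 2093). Again 8 older libraries were below all younger ones (-1.44 ± 0.39, adjusted p = 0.0030), and without replicate 1 of 13.5 months the log2 fold change was -1.21. The 3p arm of miR-144 was too rare for the read filter. With a filter of more than 1 read it was at 2.77 ± 1.53 CPM and 0.935 ± 0.884 CPM, and was lower too (-1.56 ± 0.44, adjusted p = 0.0096).

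The seed family of miR-25 and miR-92a was higher in both tested members (20.7% of all 87 were higher). miR-92a-3p comes from the proliferation-associated miR-17-92 transcript Mir17hg (chr14:115044476-115044496, exonic) and from a second copy at chrX:52741854-52741874. Its libraries spanned 3554 to 16356 CPM (median 6157) at 12 months and 5309 to 71270 CPM (median 13724) at 13.5 months. Although 11 of 12 older libraries were above the younger median, only 5 were above all younger libraries (log2 fold change 1.64 ± 0.38, adjusted p = 0.00082). The highest value was that of the library that stood apart, and without it the log2 fold change was 1.55, or 1.31 with the TMM reference library held. miR-25-3p (chr5:138165332-138165353, within Mcm7) spanned 3456 to 5546 CPM (median 3934) and 3998 to 7655 CPM (median 5828). All 12 older libraries were above the younger median (0.49 ± 0.11, adjusted p = 0.00038). Of the 2 rarer members that passed the lower filter, miR-92b-3p was higher, at 1.91 ± 0.988 and 4.64 ± 3.48 CPM (1.19 ± 0.40, adjusted p = 0.032), and miR-363-3p was not called (0.03 ± 0.31, adjusted p = 0.96).

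miR-19b-3p lies beside miR-92a in Mir17hg (chr14:115044358-115044380) and in the X-linked copy of the cluster (chrX:52741991-52742013). It moved the other way. Its libraries ranged from 9.94 to 36.0 CPM (median 16.8) at 12 months and from 2.28 to 25.04 CPM (median 7.23) at 13.5 months, with 9 older libraries below all younger ones (log2 fold change -1.08 ± 0.28, adjusted p = 0.0026). miR-19a-3p, which has the same seed and also lies in Mir17hg, was too rare for the main filter. With the lower filter it was not called (-0.52 ± 0.44, adjusted p = 0.42).

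Within each age, libraries with less miR-451a had more miR-92a-3p, both on the log2 CPM scale. Pearson's r was -0.85 over the 9 libraries of 12 months (exact permutation p = 0.0040, Spearman's rho -0.82, p = 0.011) and -0.90 over the 12 of 13.5 months (permutation p = 4.0e-05, rho -0.91, p = 0.00013). Adjusted over the 4 relations computed, the p-values of r were 0.0080 and 0.00016. When the 2 libraries farthest from the median of miR-451a were left out, r was -0.73 and -0.81. The relation of miR-451a with miR-144-5p from the same cluster had r = 0.58 at 12 months (exact permutation p = 0.11) and 0.31 at 13.5 months (permutation p = 0.33), with rho of 0.77 (exact permutation p = 0.021) and 0.20 (permutation p = 0.53). Without the 2 farthest libraries these r were 0.56 and 0.03. The adjusted p-values for miR-144-5p were 0.14 and 0.33 for r, and 0.029 and 0.53 for rho. For miR-92a-3p those of rho were 0.022 and 0.00052. All levels in a library share one total count and one TMM factor, and the part of this scaling in these relations was not tested. The pairs were chosen with the calls known.

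**Figure D3:**
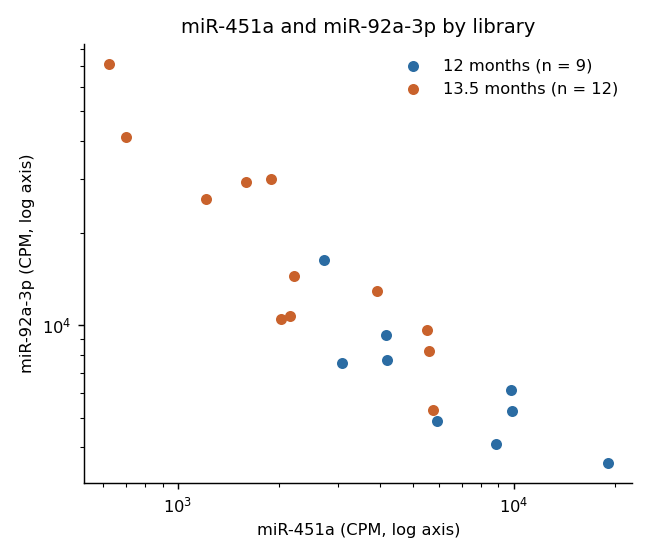
miR-92a-3p against miR-451a in each library (both axes CPM, log scale), with 9 libraries of 12 months and 12 of 13.5 months. In both ages the points fall from upper left to lower right, and the 5 libraries above the highest younger value of miR-92a-3p are of 13.5 months.

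The let-7 family, which represses growth genes such as Hmga2 and is itself held down by Lin28, was higher in 4 of 7 tested members (20.7% of all 87 were higher) with a median log2 fold change of 0.54 over the 7. let-7i-5p (chr10:122985698-122985719, outside other genes) ranged from 191 to 311 CPM (median 228) at 12 months and from 266 to 726 CPM (median 358) at 13.5 months. In 11 of 12 older libraries it was above all younger ones (log2 fold change 0.79 ± 0.14, adjusted p = 4.2e-05). let-7c-5p is cut from precursors on chromosomes 15 and 16 and ranged from 72.8 to 149 CPM (median 95.1) and from 105 to 424 CPM (median 183). All older libraries were above the younger median and 8 were above all younger ones (0.82 ± 0.21, adjusted p = 0.0016). let-7j (chr3:140028281-140028304) went from a range of 18.9 to 35.5 CPM (median 24.5) to one of 24.3 to 66.4 CPM (median 32.3), with 4 older libraries above all younger ones (0.54 ± 0.16, adjusted p = 0.0073).

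let-7a-5p was the least certain of the 4 (0.60 ± 0.23, adjusted p = 0.035). Without the library that stood apart it was 0.64 (adjusted p = 0.017), or 0.43 (adjusted p = 0.098) with the TMM reference held. Of the members that did not pass, let-7d-5p had a log2 fold change of 0.35 ± 0.21, let-7f-5p of 0.28 ± 0.21 and let-7g-5p of 0.02 ± 0.14. let-7b-5p, which was too rare for the main filter, was higher with the lower one, at 13.6 ± 6.39 CPM and 23.5 ± 13.0 CPM (0.77 ± 0.24, adjusted p = 0.018). The other rare members tested there, let-7e-5p (0.16 ± 0.42, adjusted p = 0.84) and miR-98-5p (-0.16 ± 0.21, adjusted p = 0.59), were not called, which makes 5 higher among 10 tested with that filter.

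**Figure D4:**
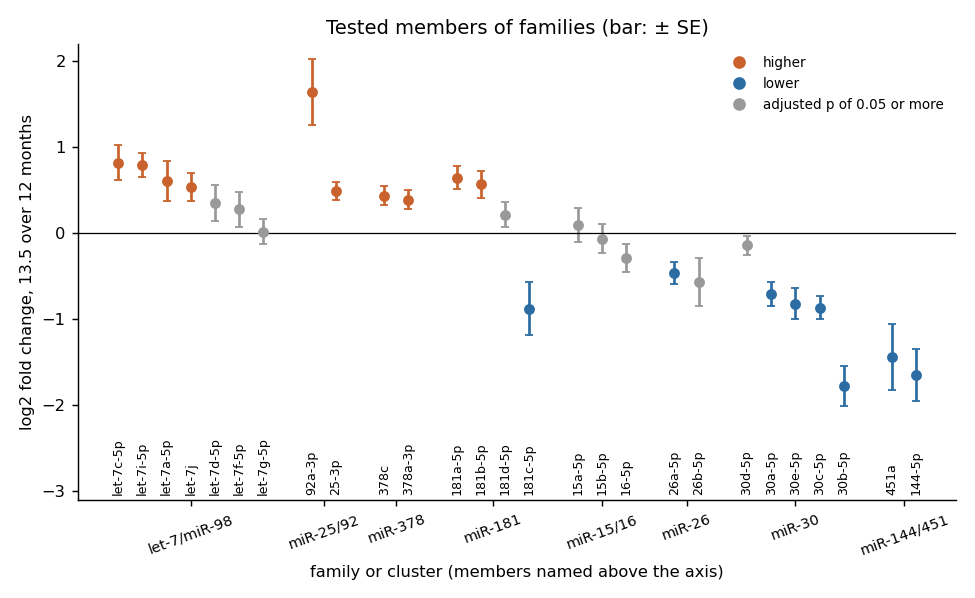
Log2 fold change of 13.5 over 12 months (y axis, bars ± 1 SE) for the tested members of 8 families or clusters (x axis), coloured by whether they passed an adjusted p of 0.05. let-7, miR-25/92 and miR-378 have their passing members above 0, miR-26, miR-30 and the pair of miR-144-5p and miR-451a below 0, miR-181 on both sides, and miR-15/16 has no passing member.

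In the miR-181 family, known for its part in lymphocyte development, 2 of 4 members of one seed were higher and 1 was lower, the last with the weaker support. Over all 87, 20.7% were higher and 23.0% were lower. miR-181a-5p has copies at chr1:137966468-137966490 and chr2:38852741-38852763 and lay between 97.2 and 163 CPM (median 109) at 12 months and between 118 and 259 CPM (median 186) at 13.5 months. Every older library was above the younger median, and 8 were above all younger libraries (log2 fold change 0.65 ± 0.14, adjusted p = 0.00029). miR-181b-5p, made from the same 2 loci, lay between 13.3 and 25.4 CPM (median 17.9) and between 15.8 and 52.4 CPM (median 25.8). It was above all younger libraries in 7 older ones (0.57 ± 0.16, adjusted p = 0.0041). miR-181c-5p (chr8:84178924-84178945, in an intron of Nanos3) was lower, from 49.3 ± 27.2 to 26.5 ± 17.3 CPM (-0.88 ± 0.31, adjusted p = 0.019). Its call was kept in 10 of 16 processing alternatives, and was lost with the lower filter (-0.72, adjusted p = 0.080) and without 12-month replicate 7 (-0.62, adjusted p = 0.089), 12-month replicate 3 (-0.74, adjusted p = 0.064) or 13.5-month replicates 1, 4 or 6 (-0.57 to -0.70). Its neighbour miR-181d-5p (chr8:84178759-84178781) was at 12.4 ± 2.54 and 14.4 ± 3.16 CPM and did not pass (0.22 ± 0.14, adjusted p = 0.24).

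The lower microRNAs with no other tested family member among the calls included miR-501-3p, from an intron of Clcn5 on the X chromosome (chrX:7241270-7241291). It ranged from 37.9 to 90.4 CPM (median 52.9) at 12 months and from 4.85 to 44.0 CPM (median 18.5) at 13.5 months, and 10 older libraries were below all younger ones (log2 fold change -1.41 ± 0.26, adjusted p = 7.6e-05). miR-140-3p, best known from cartilage, is encoded within Wwp2 (chr8:107551288-107551308) and ranged from 794 to 1465 CPM (median 1161) and from 567 to 975 CPM (median 703). All older libraries were below the younger median and 7 were below all younger ones (-0.62 ± 0.12, adjusted p = 8.3e-05). miR-22-3p, in an exon of Mir22hg (chr11:75463772-75463793), ranged from 2918 to 6277 CPM (median 4394) and from 2217 to 4776 CPM (median 2719). It was below all younger libraries in 7 older ones (-0.56 ± 0.13, adjusted p = 0.00082). The call was lost without 13.5-month replicate 1, without 12-month replicate 3 (-0.31, adjusted p = 0.078) and without 13.5-month replicate 6 (-0.31, adjusted p = 0.089).

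miR-223-3p, the microRNA of granulocytes and monocytes that is also carried by platelets, is X-linked (chrX:96242884-96242905). Its libraries spanned 14.6 to 55.7 CPM (median 25.8) at 12 months and 4.55 to 28.6 CPM (median 11.8) at 13.5 months, and 9 older libraries were below all younger ones (log2 fold change -1.01 ± 0.24, adjusted p = 0.00096). The remaining lower microRNAs were miR-26a-5p (-0.46), miR-186-5p (-0.72), miR-142a-5p (-0.54), miR-192-5p (-0.69), miR-23a-3p (-0.57), miR-99b-5p (-0.74) and miR-421-3p (-0.28 ± 0.12, adjusted p = 0.049). Of these, only miR-99b-5p kept its call without the library that stood apart when the TMM reference was chosen anew (-0.67, adjusted p = 0.025). In the same way, these 7 lost their call without 13.5-month replicate 4 and without 13.5-month replicate 6. With the reference held they kept it in these cases, except miR-421-3p without replicate 4 (adjusted p = 0.073). miR-421-3p was the weakest call and kept it in 2 of 16 processing alternatives.

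Among the higher microRNAs, miR-1198-5p, from an intron of Gripap1 (chrX:7807142-7807163), ranged from 43.8 to 68.8 CPM (median 52.8) at 12 months and from 48.2 to 256 CPM (median 93.2) at 13.5 months. In 10 older libraries it was above all younger ones (log2 fold change 1.09 ± 0.21, adjusted p = 7.8e-05). The miR-378 family was higher in both members tested (20.7% of all 87 were higher). miR-378c (chr14:46954905-46954925) ranged from 24.99 to 34.2 CPM (median 31.3) and from 30.4 to 65.0 CPM (median 38.8), with 9 older libraries above all younger ones (0.44 ± 0.11, adjusted p = 0.0014). miR-378a-3p, which is linked to energy metabolism, ranged from 74.1 to 106.7 CPM (median 90.9) and from 88.1 to 177 CPM (median 106.9). It was above all younger libraries in 6 older ones (0.39 ± 0.11, adjusted p = 0.0055). The call of miR-378c was kept in 12 of 16 processing alternatives and that of miR-378a-3p in 10. Of the rarer listed members, miR-378d was higher with the lower filter (0.51 ± 0.18, adjusted p = 0.039). miR-378a-5p (-0.0089 ± 0.30, adjusted p = 0.98) and miR-378b (0.31 ± 0.42, adjusted p = 0.63) were not called there.

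The other higher ones were miR-146a-5p (0.90 ± 0.31, adjusted p = 0.019), a feedback inhibitor of NF-κB signalling through Traf6 and Irak1, miR-676-3p (0.94), miR-8114 (0.80), miR-182-5p (0.56), miR-532-5p (0.52), miR-151-3p (0.51) and miR-130b-3p (0.37). miR-146a-5p rose from 23.8 ± 19.9 to 44.5 ± 22.1 CPM and was above the younger median in all 12 older libraries, but above all younger libraries in 1 only, since 1 younger library reached 74.4 CPM. miR-532-3p, the other arm of the miR-532 precursor, lies in an intron of Clcn5, as does miR-501-3p, which was lower. The call of miR-532-5p was kept in 9 of 16 processing alternatives. With each library left out in turn it was kept in 11 of 21 fits, or 8 with the TMM reference held.

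Several families and microRNAs did not pass. The 3 tested 5p members of the miR-15/16 family, known for restraining the cell cycle, had log2 fold changes of 0.09 ± 0.19 for miR-15a-5p, -0.06 ± 0.17 for miR-15b-5p and -0.29 ± 0.16 for miR-16-5p. The 3 tested members of the miR-125 family, among them miR-125b-5p, did not pass either, with log2 fold changes from -0.21 to 0.19. Over all 87 microRNAs, 45 had an unadjusted p under 0.05.

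The counts in the marker lists are read beside the shares over all 87, 20.7% higher and 23.0% lower. Of 8 tested erythroid microRNAs, among them miR-486b-5p and miR-486b-3p as copies of the miR-486a arms, 1 was higher (miR-92a-3p) and 2 were lower (miR-144-5p and miR-451a). miR-486a-5p, from the erythroid gene Ank1, took 86.8 ± 4.09% of the counts, with its copy left out of the total, at 12 months and 87.6 ± 3.58% at 13.5 months (difference 0.84 percentage points, exact permutation p = 0.62, adjusted p = 0.74), and its CPM did not pass either (0.31 ± 0.27, adjusted p = 0.35). The summed erythroid list without miR-486a-5p and its copy ranged from 16829 to 29292 CPM (median 20327) at 12 months. At 13.5 months it ranged from 17113 to 77155 CPM (median 22138). There miR-92a-3p alone reached 71270 CPM in replicate 1, the library that stood apart. Of 6 tested leukocyte microRNAs, 2 were higher (miR-181a-5p and miR-146a-5p), 2 were lower (miR-223-3p and miR-142a-5p), and the lymphocyte marker miR-150-5p was at 228 ± 205 and 224 ± 128 CPM (-0.03 ± 0.40, adjusted p = 0.96). The sum over this list ranged from 2612 to 3717 CPM and from 1547 to 3561 CPM, of which miR-142a-5p alone ranged from 2344 to 3433 CPM and from 932 to 3167 CPM. The part of blood cell composition in the results was not tested.

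Of 3 tested platelet and endothelial microRNAs 1 was lower (miR-223-3p), and the sum over all 7 listed ranged from 99.1 to 434 CPM at 12 months and from 47.1 to 386 CPM at 13.5 months. The endothelial microRNA miR-126a-3p reached at most 0.97 and 1.10 CPM, miR-126a-5p 4.59 and 2.31 CPM, miR-143-3p 48.4 and 8.94 CPM and miR-145a-5p 0.80 and 0.76 CPM. With the lower filter, miR-126a-3p (-0.18, adjusted p = 0.79), miR-126a-5p (-1.12 ± 0.45, adjusted p = 0.068) and miR-143-3p (-0.61, adjusted p = 0.32) were not called. Of the liver and gut list, miR-192-5p was lower, from 710 ± 197 to 440 ± 218 CPM (-0.69 ± 0.21, adjusted p = 0.0066), but not without 13.5-month replicate 1 nor with the lower filter (-0.54 ± 0.21, adjusted p = 0.064), and miR-194-5p was not called (-0.39 ± 0.18, adjusted p = 0.079). The hepatocyte microRNA miR-122-5p reached at most 0.37 and 0.30 CPM, and the 4 listed liver and gut microRNAs summed to 413 to 982 CPM and 247 to 1050 CPM. Of the muscle list, miR-1a-3p, miR-208a-3p and miR-208b-3p were at 0 in all 21 libraries, and miR-206-3p and miR-499-5p had at most 1 read. miR-133a-3p was present, with medians of 5.92 and 3.14 CPM and maxima of 24.5 and 13.4 CPM. With the lower filter it was not called (-0.82 ± 0.46, adjusted p = 0.22). The muscle list summed to at most 24.6 and 13.4 CPM. Of the brain list, miR-128-3p alone passed the filter and was not called (0.34 ± 0.16, adjusted p = 0.090), while miR-124-3p reached at most 0.11 and 0.76 CPM. The brain list summed to 75.7 to 168 CPM and 80.5 to 260 CPM, of which miR-128-3p alone ranged from 73.0 to 161 CPM and from 77.3 to 249 CPM.

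The log2 ratio of miR-451a to miR-23a-3p was 7.78 ± 0.80 at 12 months and 6.84 ± 0.86 at 13.5 months. These libraries are of total blood, red cells included, so this ratio, often used as a measure of haemolysis, is not read as one here. The difference of -0.94 had an exact permutation p of 0.019, or 0.096 when adjusted over the 5 library values. Both microRNAs were themselves lower at 13.5 months. The mean number of microRNAs detected was 426 ± 50.9 and 418 ± 63.4 (exact permutation p = 0.74), and the log2 count without miR-486a-5p and its copy differed by 0.28 (p = 0.42, adjusted p = 0.71).

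The study narrowed its candidates to 7 microRNAs on these and other samples, so their direction here is not independent evidence. Of the 6 that passed the filter, 3 were higher at 13.5 months (miR-130b-3p, miR-146a-5p and miR-181a-5p), 1 was lower (miR-192-5p), beside 20.7% and 23.0% of all 87, and neither miR-148a-3p (0.34 ± 0.32, adjusted p = 0.39) nor miR-30a-3p (0.38 ± 0.16, adjusted p = 0.055) passed. With the lower filter, 5 of the 7 were higher (9.91% of all 323), including let-7b-5p and miR-30a-3p (0.51 ± 0.18, adjusted p = 0.040), and miR-192-5p was no longer called. miR-130b-3p kept its call in 7 of 16 processing alternatives.

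The arms of one precursor were compared as log2 ratios of 5p to 3p reads, which do not depend on the scaling between libraries. Of 38 precursors, 5 (13.2%) had an adjusted p under 0.05 in the exact permutation test over the 21 libraries. For miR-15b (chr3:69009775-69009796 and chr3:69009813-69009834, in an intron of Smc4) the log2 ratio ranged from 3.31 to 4.32 (median 4.03) at 12 months and from 4.39 to 5.91 (median 5.42) at 13.5 months. Its ages did not overlap (difference 1.51, p = 3.4e-06, the smallest that the splits can give, adjusted p = 0.00013). Here the rarer arm miR-15b-3p was lower, while miR-15b-5p did not pass.

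The arms of 2 miR-30 precursors shifted the opposite way. For miR-30a the log2 ratio ranged from 5.46 to 6.31 (median 5.79) at 12 months and from 4.10 to 5.63 (median 4.83) at 13.5 months (difference -1.09, exact permutation p = 2.7e-05, adjusted p = 0.00052). For miR-30e it ranged from 4.77 to 5.90 (median 5.23) and from 3.02 to 4.91 (median 4.02) (difference -1.21, exact permutation p = 4.8e-05, adjusted p = 0.00060). In both, the 5p arm was lower and the 3p arm was not. miR-30e-3p was at 7.15 and 9.51 CPM (0.42 ± 0.18, adjusted p = 0.080 with the lower filter). The ratio of miR-1839 rose from 3.26 ± 0.65 to 4.62 ± 1.01 (difference 1.36, exact permutation p = 0.0018, adjusted p = 0.017) and that of miR-15a from 3.54 ± 0.68 to 4.74 ± 0.92 (1.20, p = 0.0046, adjusted p = 0.035). The 3p arm of miR-1839 had a mean of only 11.8 reads, near the cutoff of 10, so its ratio rests on few reads. The 3p means were 37.7 for miR-15a, 67.4 for miR-15b, 73.2 for miR-30e and 138 for miR-30a.

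**Figure D5:**
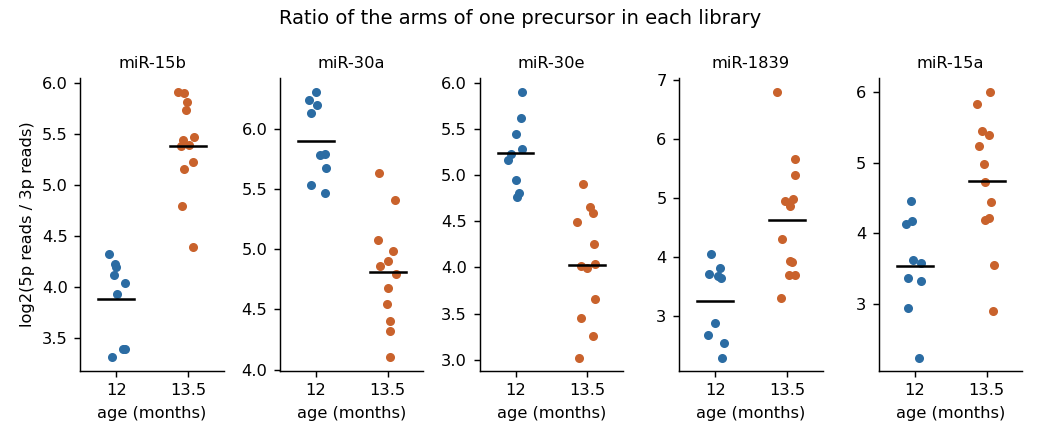
Log2 ratio of 5p to 3p reads (y axis, different for each panel) in each library at 12 and 13.5 months (x axis) for the 5 precursors with an adjusted p under 0.05, with a line at the mean. The ratios of miR-15b, miR-1839 and miR-15a are higher and those of miR-30a and miR-30e lower at 13.5 months, and the ages do not overlap for miR-15b.

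With a lower filter of over 1 read in 50% or more of the libraries, 70 of 323 microRNAs (21.7%) passed, 32 (9.91%) higher and 38 (11.8%) lower. Among the 236 microRNAs that the main filter leaves out, 37 (15.7%) passed in this fit, 12 (5.08%) higher and 25 (10.6%) lower. The share of microRNAs whose ages did not overlap was counted for the main filter only, 2 of 87 (2.3%). In the fit with the lower filter, the lowest p belonged to a pair whose ages did not overlap.
miR-3969: cCCUAAAGuagaaaucacua
miR-15b-3p: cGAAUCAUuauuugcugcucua

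miR-3969 (chr5:87595963-87595982, outside other genes) lay between 5.57 and 45.3 CPM (median 10.7) at 12 months and between 1.69 and 5.56 CPM (median 3.67) at 13.5 months (log2 fold change -2.66 ± 0.30, adjusted p = 2.9e-08). It was at 5.90 ± 1.91 CPM at 15 months and at 181.8 ± 32.5 CPM at 16.5 months. miR-15b-3p lay between 7.98 and 21.4 CPM (median 11.2) and between 1.69 and 6.95 CPM (median 4.41), with a log2 fold change of -1.53 ± 0.20 (adjusted p = 2.1e-07).

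The next lower ones were miR-872-3p, at 1.41 ± 0.675 and 0.346 ± 0.245 CPM (-1.84 ± 0.32), miR-99a-5p, at 12.4 ± 4.81 and 5.22 ± 1.37 CPM (-1.25 ± 0.22), and miR-322-3p, at 3.68 ± 1.38 and 1.59 ± 0.58 CPM (-1.25 ± 0.23). In each of them at least 10 of the 12 older libraries were below all younger ones. Of the higher ones, miR-5099 was at 3.20 ± 1.81 and 8.22 ± 3.82 CPM (1.27 ± 0.30, adjusted p = 0.0021), and 9 older libraries were above all younger ones. miR-1970 was at 0.176 ± 0.208 and 0.626 ± 0.331 CPM (1.79 ± 0.45, adjusted p = 0.0042), and was at 0 in the lowest younger library. miR-375-3p, a microRNA of endocrine and epithelial cells, was at 1.43 ± 0.786 and 3.59 ± 2.12 CPM (1.28 ± 0.33, adjusted p = 0.0056). miR-221-3p, which represses Kit in erythroid precursors, was at 10.01 ± 2.39 and 16.7 ± 7.17 CPM (0.75 ± 0.21, adjusted p = 0.011). The calls of miR-374b-5p and miR-374c-5p, and those of let-7a-1-3p and let-7c-2-3p, rest on identical values and are 1 measurement for each pair.

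At the later ages the leading microRNAs were closer to their 12-month level in some cases and not in others. miR-30b-5p was at 97.9 ± 30.6 CPM at 15 months (n = 5) and 80.3 ± 15.3 CPM at 16.5 months (n = 11), miR-451a at 5119 ± 3243 and 4542 ± 1948 CPM, and let-7i-5p at 175 ± 24.7 and 193 ± 23.6 CPM. miR-501-3p, by contrast, was at 33.7 ± 4.74 and 22.5 ± 7.83 CPM, and miR-25-3p at 5583 ± 465 and 5458 ± 844 CPM. These later ages were not tested here.

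A RefSeq mature sequence was found for 73 of the 87 tested microRNAs. Their median GC content was 47.8% for 15 higher, 44.5% for 18 lower and 45.5% for all 73, and across these microRNAs, which are not independent and share the same libraries, GC content and log2 fold change had a Spearman correlation of 0.21.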

How the data were processed

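Small RNA libraries of mouse total blood were analysed from the processed tables. Per the study's methods, the authors trimmed adapters with cutadapt, checked reads with FastQC (0.11.5 per the labels), discarded short reads and counted perfect matches to miRBase precursors on mm10 with miRDeep2. The authors deposited raw counts as whole numbers, 2241 rows for 1915 mature microRNAs, and a normalized signal for 337 of them. In that deposited signal 100% of the values equalled the first row of the microRNA times one factor per library (relative tolerance 0.001). The first row was therefore used for each microRNA, also for the 115 with several rows.

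The groups were the ages in the labels. edgeR 4.0.16 in R 4.3.3 fitted all 37 libraries with age as the factor, and the quasi-likelihood test was made on the 13.5-month coefficient. MicroRNAs passed the filter with over 100 reads in 50% or more of the libraries, or with over 1 read for the second filter. Library size was the sum of first rows, and TMM factors came from the kept microRNAs. P-values were adjusted by the Benjamini-Hochberg method over all microRNAs tested, and the threshold was 0.05. The SE of a log2 fold change is its size over the square root of F. Fold changes are on the scale of fitted counts. Arm ratios were log2 of 5p over 3p counts with 0.5 added to each, for precursors with a mean of at least 10 reads in each arm, and were tested with library values by two-sided exact permutation over all 293930 assignments of the 21 libraries to the ages (Python 3.11.15, scipy 1.17.1). Relations across the 12 libraries of 13.5 months used a permutation test. Counts cover reads, and PCR copies cannot be told from molecules.

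The alternatives were DESeq2 1.42.0, limma 3.58.1 on the log2 of the deposited normalized values plus 1, other normalizations and TMM references, RUVs factors as the authors used (rebuilt from the published formula, with 1 to 3 factors), filters, summed rows, the 21 libraries alone, the replicate number as a block and each library left out. Leaving libraries out with the TMM reference held was chosen after seeing the data. edgeR and DESeq2 fits were tested on simulated counts, which does not cover all of these alternatives.

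Values per library are given for the 10 smallest p in each direction and for members of chosen families, and for 5 low-count microRNAs in each direction. miR-144-3p, miR-92b-3p and miR-30e-3p were added as partners of those. The microRNAs, families and marker lists were chosen with earlier results of these data known. Same-numbered libraries of the ages were not treated as pairs, since the labels do not tie a number to a mouse. No pair of libraries was identical, and 13.5-month replicates 6 and 7 were the most alike (chi-square per degree of freedom 52.1), so all were kept. Coordinates are those of GRCm38.p6 (the build of mm10) with GENCODE annotation, and sequences are from RefSeq on the same build.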

Additional observations from a re-analysis of the deposited data

Results flagged for a closer look

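In 51 groups of 9 libraries at 12 months, 1 for each microRNA examined, 7 held a library whose gap to its neighbour, divided by the range of the group, was above Dixon's 95% critical value. For normally distributed values chance gives about 1 in 20 groups, and whether these CPM values are so distributed was not tested. The groups share the same 9 libraries and are not independent. Each of the 7 was the highest library of its group. Replicate 1 was high in miR-25-3p (5546 CPM, next 4300) and in miR-146a-5p (74.4 CPM, next 28.4). Replicate 7 was high in miR-451a (19052 CPM, next 9920) and in miR-181c-5p (113 CPM, next 61.3). The others were replicate 2 in miR-92a-3p (16356 CPM, next 9338), replicate 4 in miR-223-3p (55.7 CPM, next 34.7) and replicate 6 in miR-150-5p (696 CPM, next 333).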

How the results depend on the processing

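The count of called microRNAs depended on the normalization and the model. It was 20 (9 higher, 11 lower) with upper-quartile scaling, 10 (2 and 8) with the total count only, 27 (9 and 18) with the total without miR-486a-5p and its copy, 70 (32 and 38) with the filter of more than 1 read, 41 (13 and 28) without a filter, 23 (8 and 15) with 3 RUVs factors and 27 (11 and 16) with the 21 libraries alone. In the other alternatives it lay between 40 and 45, with 43 (21 and 22) for 1 RUVs factor. The median log2 fold change over the 87 was 0.11 with TMM and -0.09 with the total count only, and from 0.03 to 0.34 over the 37 TMM references, where 34 to 45 were called, 13 to 28 of them higher and 11 to 22 lower. The causes were not tested.

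Leaving out each library in turn gave 32 to 47 calls, with 14 to 30 higher and 11 to 21 lower. Higher calls rose to 30 and 28 without 12-month replicates 2 and 3 and to 29, with 11 lower, without 13.5-month replicate 6. Lower calls were 12 without 13.5-month replicate 1 and also without replicate 4. With the TMM reference held, which was chosen after seeing the data, the ranges were 33 to 42, 14 to 20 and 19 to 23. With the lower filter the ranges were 46 to 83 in all, 21 to 36 higher and 22 to 47 lower, with 46 in all and 22 lower without 12-month replicate 7, and 21 higher without 13.5-month replicate 5. The higher calls of the lower filter were 10 with the total without miR-486a-5p and its copy.

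Of the 38 microRNAs called, 7 kept their call in all 16 processing alternatives in which they were tested: miR-30b-5p, miR-30c-5p, miR-30a-5p, miR-144-5p (15 of 15), miR-501-3p, miR-92a-3p and miR-451a. With each library left out, 24 kept it. Called values changed sign with 3 RUVs factors only, in miR-151-3p (-0.0075), let-7a-5p (-0.10) and miR-676-3p (-0.089). The 5 arm ratios passed under both alternatives run.

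With the replicate number as a block 43 were called (21 higher, 22 lower). The deviations of 9 same-numbered pairs had a mean correlation of -0.069 (-0.72 to 0.62, 4 over 0.1), and 0 of 9 correlated best with their own number, so the numbers were not taken as pairing.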
